A study of Mus musculus with 12 samples.

Results

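Hormones that make fat cells release fatty acids act through receptors on the cell surface and through cyclic AMP (cAMP). A stimulatory receptor activates the G protein subunit Gs alpha, adenylyl cyclase then makes cAMP, and cAMP frees the catalytic subunits of protein kinase A, which phosphorylate hormone-sensitive lipase and perilipin at the lipid droplet. Inhibitory receptors, phosphodiesterases and insulin oppose this chain. Natriuretic peptides drive lipolysis by a parallel route through cyclic GMP, mainly in primates, and in rodents their clearance receptor is abundant in fat.

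The genes described here are Tshr, Mrap, Npr3 and Gnas. They are the 4 of 8 listed genes of lipolytic hormone reception and cAMP signalling that have at least 1 probe set naming them alone in the platform annotation. Adrb3, Adra2a, Pde3b and Prkar2b have no such probe set in the annotation used and are not analysed here. The 4 genes have 8 probe sets of 12422: Npr3 and Gnas have 3 each, Tshr and Mrap have 1 each. The 8 genes were chosen by role with their log2 fold changes in both comparisons already known, so the changes of their probe sets are given as a description and support no statement about the pathway.

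The study profiled RNA of perigonadal adipose tissue on 12 Affymetrix arrays, 1 for each of 12 mice. All were female and 6 months old, with food freely available. The overexpressors (3 mice, FVB) carry a Glut4 transgene driven by the aP2 promoter, and their controls (3 mice) are FVB littermates. The adipose knockouts (3 mice, labelled adipose-Glut4-/-, mixed C57B6/FVB/SV129) are given as lacking Glut4 in fat, and their controls (3 mice, same mixed strain) carry the aP2-Cre transgene. The aP2 promoter, that of Fabp4, is strong in fat cells and is also known to act in some macrophages. The labels do not give the deleted exons of Glut4. Each mutant was read only against its own control, because the arrays of the 2 lines have different smallest values (21.9 and 22.27) and appear to have been processed separately.

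Values are the deposited intensities on a linear scale, which measure RNA per probe set and cannot be set against another probe set's. Log2 fold changes are differences of mean log2(intensity + 36.92), where 36.92 is the value that 10% of all deposited intensities lie below, with standard errors (SE) of a limma fit to all 12 arrays, and they understate the change of dim probe sets. The fit takes 1 estimate of spread per probe set from all 4 groups, so a probe set has the same SE in both comparisons. Where the spread differs between the lines, that SE is not the precision of either comparison alone. Array medians ran from 185.8 to 219.4. The lowest were those of knockout control 3 (185.8) and overexpressor 1 (188.1), and the other arrays lay at 202.6 to 219.4. Tshr and Mrap, described below, each read lowest of their group on both of these low arrays (Tshr 499.9 and 379, Mrap 566 and 779). The brightest probe sets of Npr3 and Gnas did so on overexpressor 1 but not on knockout control 3. Medians were subtracted only as an alternative. On its tested probe set Slc2a4, the Glut4 gene, read 625, 1109.7 and 1042 in overexpressors and 639, 583 and 1212 in their controls. It read 378, 365 and 363 in knockouts and 416, 514 and 614 in their controls, so that probe set separated the knockouts but not the overexpressors from controls. Another Slc2a4 probe set, left out as dim, read 21.9 to 33.2 in the overexpressor line and 22.27 to 29.4 in the knockout line, with overlap in both. As the species of the transgene and the deleted exons are not given, neither probe set checks the labels of either line. Of 10 adipocyte markers, 8 were measured and all 8 passed the filter on dim probe sets. Their summed intensity was 24345 to 32416 in overexpressors and 28029 to 31741 in their controls. In knockouts it was 29547 to 32608, against 26554 to 29344 in their controls, so all 3 knockouts lay above all 3 controls.

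Sequence upstream of a start site was available for Npr3 and Gnas in the promoter table used, which is taken from RefSeq (GRCm38.p6) and spans 250 bases before to 50 after each start. The windows are shown because Npr3 varied most between arrays among the 4 genes and Gnas, on its brightest probe set, least. In capitals is the core of the cAMP response element, searched as TGACG on both strands (CGTCA on the other), which is bound by factors that protein kinase A activates. The Npr3 window lies on the minus strand of chromosome 15 and the Gnas window on the plus strand of chromosome 2. The Gnas window is 1 of 4 for that gene and was picked after the search from those that hold the core. Which Gnas transcript starts there is not given in the sources used here, so it is not shown as the promoter of Gs alpha.
Npr3, chr15:11907322-11907621: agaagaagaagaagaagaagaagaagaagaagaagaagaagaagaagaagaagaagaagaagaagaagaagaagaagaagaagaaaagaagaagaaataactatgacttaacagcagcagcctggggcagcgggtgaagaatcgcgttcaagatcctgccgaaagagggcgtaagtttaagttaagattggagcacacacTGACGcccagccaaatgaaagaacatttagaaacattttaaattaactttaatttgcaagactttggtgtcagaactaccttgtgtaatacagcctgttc
Gnas, chr2:174327499-174327798: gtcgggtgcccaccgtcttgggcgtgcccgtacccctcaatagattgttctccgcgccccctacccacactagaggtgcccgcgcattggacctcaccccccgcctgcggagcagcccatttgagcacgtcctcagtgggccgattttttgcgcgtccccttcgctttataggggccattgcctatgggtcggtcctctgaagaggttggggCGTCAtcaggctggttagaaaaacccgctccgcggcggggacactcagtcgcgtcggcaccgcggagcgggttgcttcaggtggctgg
The Npr3 window has 39% G or C and opens with a run of AAG repeats, and its single core begins 50 bases before the start. The Gnas window has 64.3% G or C, and its core, on the opposite strand, begins 38 bases before the start. The median over 32851 windows was 52.7% G or C, and 20.8% of windows hold the core. Of the 4 Gnas windows, of which a pair overlap, 3 hold the core, and the overlapping pair hold the same site. GC boxes (GGGCGG on either strand) are in 2 of the windows, 1 and 3 of them, and G or C runs from 61% to 81.7%. Neither window shown holds the full element TGACGTCA, which 1.79% of windows hold, or a GC box, which 35.7% hold. These are matches of letters only.

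**Figure D1:**
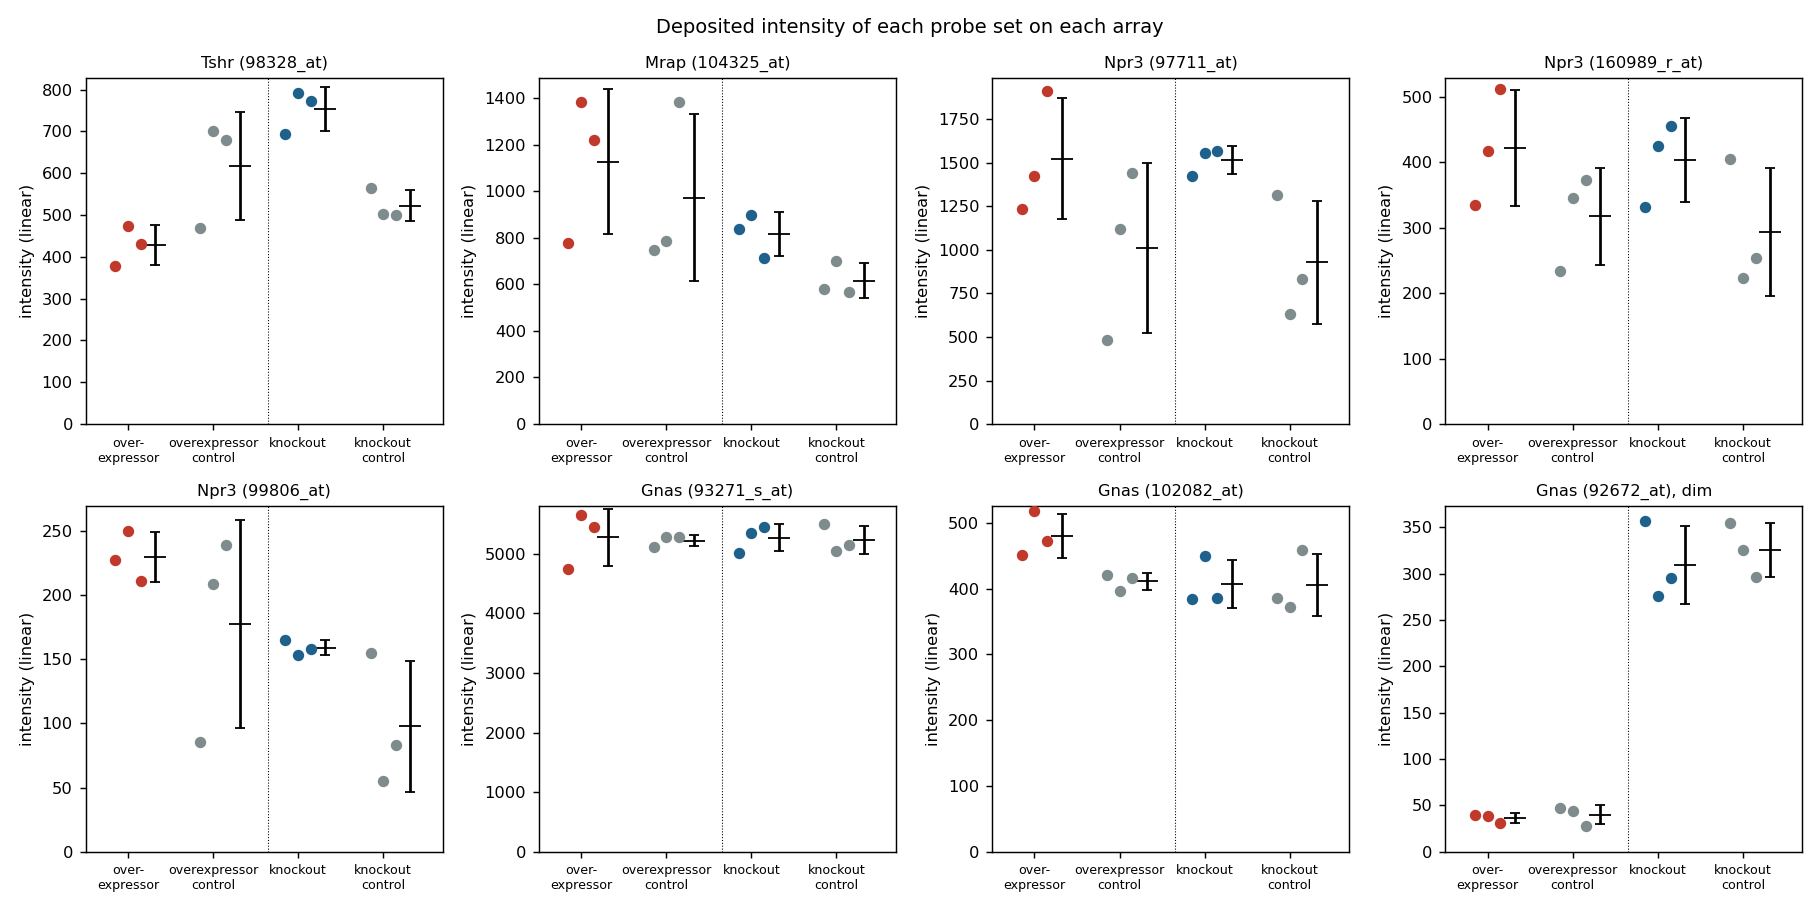
Deposited intensity (linear, y axis) of each of the 8 probe sets of Tshr, Mrap, Npr3 and Gnas on each of the 12 arrays, by group (x axis); coloured points are arrays, the black dash and bar are the mean and SD of 3 arrays, and the dotted line separates the lines, between which no level is compared. Tshr lies at 379 to 473 in overexpressors against 469 to 701 in their controls, and at 693 to 793 in knockouts against 500 to 566 in theirs.

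Tshr encodes the thyrotropin receptor, a G protein-coupled receptor best known from the thyroid that also raises cAMP in fat cells. In whole tissue, more cells of a type and more RNA per cell cannot be told apart, for Tshr as for all genes below. Its probe set read 379, 473 and 432 in overexpressors, against 469, 701 and 680.3 in their controls. The groups overlapped by a single pair, overexpressor 2 lying just above control 1. In knockouts it read 693, 793 and 773, against 566, 503 and 499.9 in their controls, and all 3 knockouts were above all 3 controls. The mean was 428 ± 47.4 in overexpressors and 617 ± 129 in their controls, a log2 fold change of -0.48 (SE 0.15, n = 3 each). The mean was 753 ± 52.7 in knockouts and 523 ± 37.1 in their controls, a log2 fold change of 0.50 (SE 0.15, n = 3 each). The changes thus had opposite signs and nearly the same size, and overexpressor minus knockout effect was -0.97 (SE 0.21). The adipocyte markers, given above, also summed higher in all 3 knockouts, and their part in the knockout values of Tshr, Mrap and Npr3 was not tested.

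The spread between animals of Tshr was unequal. Its within-group SD on the log2 scale was 0.24 in the overexpressor line, where the median over 7454 tested probe sets was 0.17, and 0.096 in the knockout line, where the median was 0.18. With all arrays kept and no array weights, limma did not call Tshr over all probe sets. Its limma adjusted p was 0.670 in overexpressors, 0.9995 in knockouts and 0.160 for the difference between the effects. Without overexpressor control 1, the lowest control of that line, the overexpressor change was -0.65. The difference between the effects was then -1.15, which limma called (adjusted p = 0.0209). Without overexpressor control 2, the highest control of that line, the change was -0.38 and the difference was -0.88. These were the smallest in size with 1 array left out. Over all alternatives tried the limma adjusted p of the difference ran from 0.0074 to 0.503. Of 5 thyroid follicle markers, 2 were measured, Tg and Pax8, and Pax8 was dim. Their summed intensity was 651 to 788 in overexpressors and 654 to 784 in their controls. It was 609 to 736 in knockouts and 642 to 672 in theirs, with overlap in both lines. As only Tg passed the filter, the sum cannot show whether thyroid tissue was sampled, which was not tested.

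Mrap encodes the melanocortin 2 receptor accessory protein, which carries the corticotropin receptor to the cell surface. Its probe set read 779, 1384 and 1218 in overexpressors, against 749, 785 and 1385 in their controls. Both groups of that line spanned nearly the same range, with 1 low and 2 high overexpressors and 2 low and 1 high controls. Knockouts read 837, 898 and 713, against 579, 702 and 566 in their controls. All 3 knockouts lay above all 3 controls, although knockout 3 and control 2 differed by little. The knockout mean was 816 ± 94.2 against 616 ± 75.4 in controls, a log2 fold change of 0.39 (SE 0.24, n = 3 each). The overexpressor mean was 1127 ± 313 against 973 ± 357 in controls, a log2 fold change of 0.22 (SE 0.24), and it was 0.058 without overexpressor 2 and 0.50 without overexpressor control 3.

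Mrap was one of the more variable genes of the overexpressor line, with a within-group log2 SD of 0.45 that 97.3% of tested probe sets fell below. In the knockout line its SD was 0.16, near the median. The SE of 0.24 given for both comparisons pools these unlike spreads. In the overexpressor line, the summed intensity of 7 measured brown or beige adipocyte markers was 1102, 3054 and 2067 in overexpressors and 1670.3, 2716 and 4577 in controls, so the lowest overexpressor and the highest control on that sum were also the lowest overexpressor and the highest control for Mrap. In the knockout line the sum was 5017, 3688 and 5197 in knockouts and 1396, 4893 and 3739.9 in controls, where the lowest control on that sum was control 1 and the lowest for Mrap was control 3. The part of these cells in the Mrap signal was not tested.

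Mc2r, the corticotropin receptor that needs Mrap, was measured as a gene of the wider pathway. Its probe set read 446, 559.6 and 579.6 in overexpressors, against 341, 418 and 414 in their controls, and the groups did not overlap. The log2 fold change was 0.40 (SE 0.12), which did not pass over all probe sets (limma adjusted p = 0.670) and was called with array weights alone among the alternatives tried (0.41, adjusted p = 0.0124). Knockouts read 363, 358 and 405, against 380.3, 333 and 323 in their controls, with overlap and a log2 fold change of 0.11 (SE 0.12, limma adjusted p = 1.000).

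Npr3 encodes the natriuretic peptide clearance receptor, which binds natriuretic peptides and removes them without making cyclic GMP. On its brightest probe set (97711_at) it read 1238, 1423 and 1913 in overexpressors, against 481, 1118 and 1441 in their controls. The overexpressors reached higher, but control 3 lay above 2 of them. In knockouts it read 1427, 1554 and 1568, against 1317, 634 and 832 in their controls, and all 3 knockouts were above all 3 controls. The mean was 1525 ± 349 in overexpressors and 1013 ± 488 in their controls, a log2 fold change of 0.68 (SE 0.34, n = 3 each). The mean was 1517 ± 77.7 in knockouts and 928 ± 351 in their controls, a log2 fold change of 0.75 (SE 0.34, n = 3 each).

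Npr3 was thus on the same side of control in both lines. The 160989_r_at probe set read 335, 417 and 512 in overexpressors, against 233, 345 and 373 in controls, and 332, 424 and 455 in knockouts, against 406, 223 and 253 in controls. The 99806_at probe set read 227, 249.7 and 211 in overexpressors, against 85.2, 208 and 239 in controls, and 165, 153 and 158 in knockouts, against 155, 55.0 and 83.1 in controls. Both overlapped between groups in both lines, with log2 fold changes of 0.38 and 0.39 in overexpressors and 0.44 and 0.61 in knockouts, so all 3 probe sets had the same sign.

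The 3 probe sets also picked out the same low arrays. Overexpressor control 1 was lowest of its 6 arrays on each of them, and knockout control 2 was lowest of its 6 on each. Knockout control 1 was the highest control of its line on each. In contrast, the 3 knockouts were close together, at a log2 SD of 0.073, 0.22 and 0.044 against 0.51, 0.41 and 0.54 in their controls. The size of the Npr3 change therefore hung on single control animals: without overexpressor control 1 it was 0.23, 0.19 and 0.032 on the 3 probe sets, and without knockout control 2 it was 0.52, 0.29 and 0.37.

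**Figure D2:**
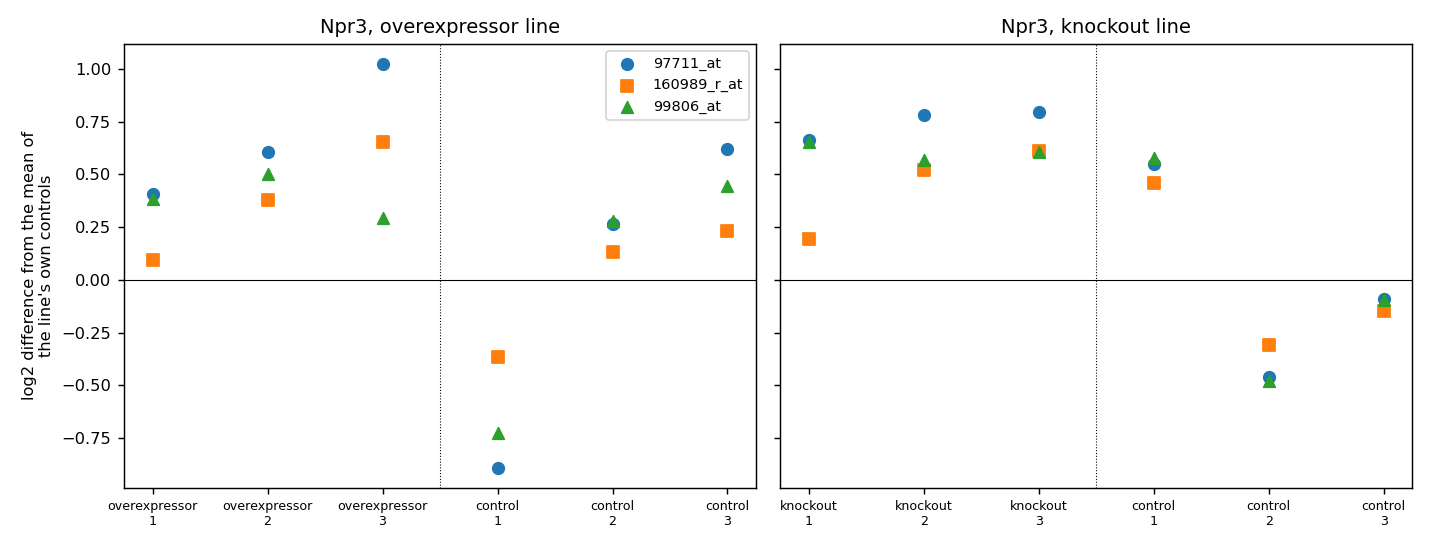
Log2 difference of the 3 Npr3 probe sets (markers) from the mean of the line's own controls (y axis) on each array (x axis), with the overexpressor line on the left and the knockout line on the right. All 3 probe sets are lowest on overexpressor control 1 and on knockout control 2.

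The low overexpressor control 1 was also the array of its line with the highest summed markers of macrophages, matrix, smooth muscle and mesothelium. Macrophage markers summed to 5535 to 6092 in overexpressors and to 10914, 7335 and 4998 in their controls. Fibroblast and matrix markers summed to 17431 to 21177 in overexpressors and to 29596, 26180.1 and 19903 in their controls. Mesothelial markers summed to 2615 to 3165 in overexpressors and to 5448, 3284 and 2714 in their controls. Knockout control 2, the low array of the other line, had the highest mesothelial sum of that line (2785, against 2150 to 2701 in knockouts and 2476 and 2055 in the other two controls) but the lowest macrophage sum, at 4110.2 against 4328 to 6832 in knockouts and 6494 and 4377 in the other two controls. The highest matrix and smooth muscle sums of the knockout line were on knockout control 1, its highest control for Npr3: matrix markers summed to 16403 to 22604 in knockouts and to 24604, 19037 and 19414 in their controls, and smooth muscle markers to 9114 to 11803 in knockouts and to 15214, 12428 and 10599 in their controls. The part of these cells in the Npr3 values was not tested.

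Gnas encodes Gs alpha, the G protein subunit that links these receptors to adenylyl cyclase; the imprinted locus also gives other transcripts from upstream promoters. On its brightest probe set (93271_s_at) it read 4745, 5646 and 5446 in overexpressors, against 5109, 5278 and 5280.2 in their controls. Knockouts read 5018, 5357 and 5447, against 5507, 5049 and 5143 in their controls. Both pairs of groups overlapped, with a log2 fold change of 0.01 (SE 0.09) in each comparison, the 95% interval running from -0.19 to 0.22 in both. Only 1.63% of 5706 tested genes deviated less from their own line's control mean, over all 12 arrays. That share is over genes of all levels, while this probe set lay above 99.8% of all probe sets in mean level. The part of its high level in the small deviation was not tested.

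The 102082_at probe set of Gnas read 451, 518 and 472 in overexpressors, against 421, 396 and 416 in their controls, and the 3 overexpressors lay above the 3 controls. The log2 fold change was 0.21 (SE 0.11). In knockouts it read 385, 449.5 and 386, against 386, 372 and 459 in their controls, with overlap and a log2 fold change of 0.0069 (SE 0.11). A further probe set, 92672_at, read 40.1, 38.7 and 30.8 in overexpressors, against 47.2, 43.9 and 28.1 in their controls, and 357, 276 and 295 in knockouts, against 355, 326 and 297 in their controls. It was left out of the fit by the filter on the mean over all 12 arrays, and its groups overlapped in both lines. Which of the transcripts of the locus each probe set reads is not given in the sources used here.

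**Figure D3:**
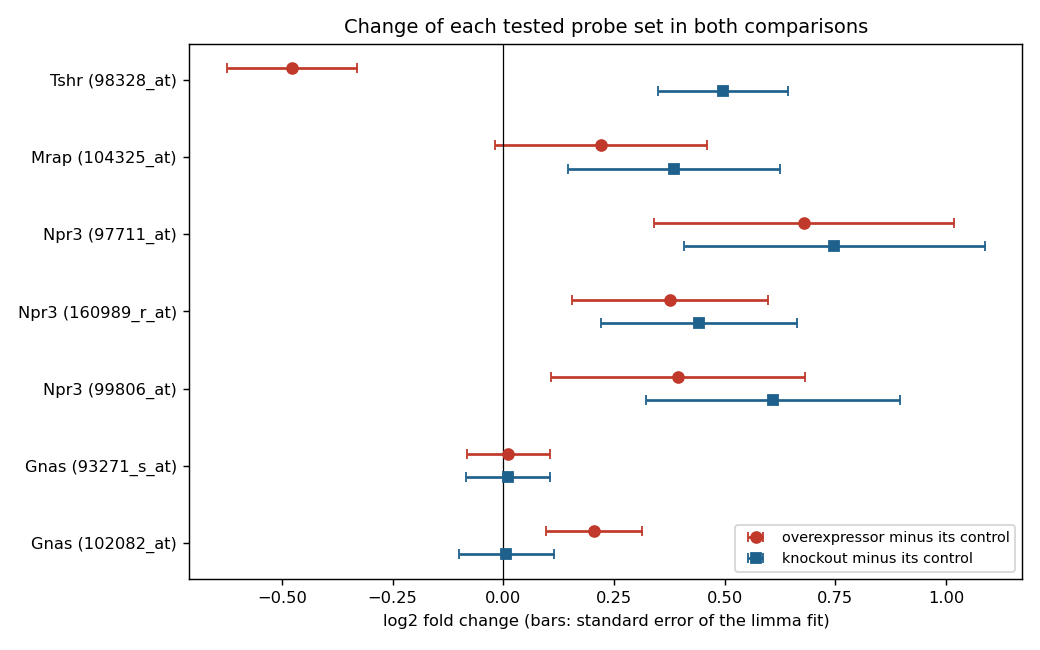
Log2 fold change (x axis) of the 7 tested probe sets (y axis), with bars for the standard error of the limma fit; red circles are overexpressor minus its control and blue squares knockout minus its control. Tshr lies at -0.48 and 0.50, the Npr3 probe sets lie above 0 in both comparisons, and the brightest Gnas probe set is at 0.01 in both.

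Limma with Benjamini-Hochberg adjustment over 7454 probe sets called 0 of the 7 tested probe sets at 0.05 in the overexpressor comparison, where it called 0.0805% of all, and 0 of 7 in the knockout comparison, where it called 0.121% of all. At an unadjusted p under 0.05 there was 1 in overexpressors (Tshr, lower) and 2 in knockouts (Tshr and Npr3 97711_at, higher), against 3.53% of all probe sets lower in overexpressors and 3.46% higher in knockouts. The difference between the effects was called for 0 of 7 and for 0.161% of all, with Tshr alone under an unadjusted 0.05 (lower), as were 4.32% of all. Complete separation of groups was seen for 1 of 7 in overexpressors, upward, against 2.29% of all probe sets upward and 8.8% in either direction, and for 3 of 7 in knockouts, upward, against 5.66% upward and 7.59% in either direction. The median log2 fold change of the 7 was 0.22 in overexpressors, against -0.07 over all tested probe sets, and 0.44 in knockouts, against 0.04. Npr3 holds 3 of the 7, and the knockout median is the value of its 160989_r_at probe set. These counts describe genes that were listed with the comparisons known. With array weights, whose iteration did not converge and which called 411 probe sets in overexpressors, Tshr, Mrap (0.60) and Gnas 102082_at (0.28) were called there.

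To place each gene, the tested genes with the nearest deviations from their own line's control mean over the 12 arrays were found, by the root mean square (RMS) of the log2 difference. The genes were picked by nearness on these same arrays, so the shared patterns given below follow from the choice. Epas1, a hypoxia-inducible transcription factor, was nearest to Npr3 at 0.23, where the median distance over 5705 genes was 0.68, and B3galt1 came next at 0.34. Epas1 read 325, 408 and 413 in overexpressors and 145, 397 and 363 in their controls, and 364.5, 332 and 341 in knockouts and 289.7, 179 and 205 in their controls. Like Npr3 it was lowest on overexpressor control 1 and on knockout control 2. Alas1, the first enzyme of heme synthesis, and Cmbl were nearest to Tshr, both at 0.16 (median distance 0.38). Alas1 read 589, 918 and 779 in overexpressors and 965, 1083 and 1300.2 in their controls, and 1160.1, 1275 and 1395 in knockouts and 1033, 1028 and 709 in their controls, on opposite sides of control in the 2 lines as Tshr was. Idh3a, a subunit of mitochondrial isocitrate dehydrogenase, was nearest to Mrap at 0.10 and Uhrf1bp1 next at 0.13 (median distance 0.39).

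The remainder of the pathway was read from lists of 131 genes by role, chosen with results of the series known. Of these, 83 were named by a probe set of their own and 62 passed the filter. Limma called 0 of the 62 in overexpressors and 0 in knockouts, against 0.0876% of 5706 tested genes in each comparison. At an unadjusted p under 0.05, 3 lay higher and 6 lower in overexpressors, against 1.21% and 3.7% of all genes, and 2 higher and 1 lower in knockouts, against 3.01% and 0.578%. Their median log2 fold change was -0.06 in overexpressors and 0.04 in knockouts, against -0.08 and 0.05 over all tested genes. Of all 5706 tested genes, 71.6% had a negative log2 fold change in overexpressors and 64.1% a positive one in knockouts, so the signs counted below are given beside these shares.

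Of 6 tested stimulatory receptors, 5 had a positive and 1 a negative log2 fold change in overexpressors, and 2 a positive and 4 a negative one in knockouts. Over all tested genes, 28.4% were positive in overexpressors and 64.1% in knockouts. Several of these signs belong to values near 0: in overexpressors Gcgr was at 0.0053, Mc5r at 0.022 and Vipr1 at -0.0067. The list median was 0.06 in overexpressors and -0.07 in knockouts. Pth1r, the parathyroid hormone receptor, read 329.7, 534 and 585 in overexpressors, against 195, 159 and 254 in their controls. Knockouts read 128, 143 and 106, against 213, 168 and 157 in their controls. The groups were separated in both lines and in opposite directions, with log2 fold changes of 1.10 (SE 0.20, limma adjusted p = 0.0840) in overexpressors and -0.41 (SE 0.20, adjusted p = 1.000) in knockouts. Pth1r was called in overexpressors with array medians subtracted (1.16, limma adjusted p = 0.0242), with quantile normalization (1.16, adjusted p = 0.0208), with array weights (1.47, adjusted p = 5.47e-05), without overexpressor 1 (1.33, adjusted p = 0.0130) and without overexpressor control 3 (1.25, adjusted p = 0.0442). It was not called under the other alternatives, among them no filter (adjusted p = 0.255 by limma), the replicate block (0.200), the line's own 6 arrays (0.362) and leaving out overexpressor 2 (0.481), overexpressor 3 (0.416) or overexpressor control 2 (0.450), and it was not in the fit with the lowest 60% left out. Vipr2, a receptor for vasoactive intestinal peptide, was at 0.10 in overexpressors and -0.22 in knockouts.

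Of inhibitory receptors, Ptger3 and Npy1r were tested, and Ptger3, the EP3 prostaglandin receptor, again lay on opposite sides of control. It read 324, 616 and 567 in overexpressors, against 657, 710.4 and 918 in their controls, and 291, 307 and 281.5 in knockouts, against 277, 259 and 223 in their controls. The log2 fold changes were -0.60 (SE 0.20, limma adjusted p = 0.793) and 0.19 (SE 0.20, adjusted p = 1.000). The Ptger3 value was -0.33 without overexpressor 1, the lowest array of its line, and -0.32 with array weights, and in knockouts it was 0.12 without knockout control 3. Npy1r, a neuropeptide Y receptor, was at -0.31 and -0.11. In the natriuretic and cyclic GMP list, Prkg2, a cyclic GMP-dependent kinase, was at 0.41 in overexpressors and 0.36 in knockouts, and Nppa, the atrial natriuretic peptide, at -0.14 and -0.05; none passed.

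Among 14 tested G protein subunits and regulators, 12 had a negative log2 fold change in overexpressors and 7 in knockouts, against 71.6% and 35.9% of all tested genes. Rgs16, which shortens G protein signals, read 339, 336 and 319 in overexpressors, against 285, 281 and 253 in their controls, and 283, 267 and 254 in knockouts, against 315, 324 and 304 in their controls. Its log2 fold changes were 0.25 and -0.20 (SE 0.09 each), with groups that did not overlap in either line. Rgs2, of the same family, was at -0.72 in overexpressors and -0.10 in knockouts, Grk5, a receptor kinase, at -0.0015 and 0.22, and Gnai2, an inhibitory subunit, at -0.19 and -0.0091. None of the 14 passed over all probe sets.

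All 7 tested adenylyl cyclases and related proteins were between -0.10 and 0.09 in overexpressors and between -0.03 and 0.19 in knockouts, with Adcy6 at -0.04 and 0.05, Adcy3 at 0.09 and 0.19, Adcy9 at -0.10 and -0.03 and Adcy4 at 0.03 and 0.11. Of phosphodiesterases, 3 were tested, with Pde8a at -0.18 and 0.13 and Pde4b at 0.07 and 0.09, while Pde4d was not named by a probe set of its own. Of the 11 tested subunits, inhibitors and anchors of protein kinase A, Prkaca, the alpha catalytic subunit, read 1113, 1148 and 1132 in knockouts, against 826, 985 and 909 in their controls, without overlap (0.31, SE 0.14, limma adjusted p = 1.000), and was at -0.19 in overexpressors. Prkacb was at -0.32 in overexpressors and -0.20 in knockouts, the regulatory subunit Prkar1a at -0.10 and 0.17, and the anchors Akap12 at -0.24 and 0.13 and Akap2 at 0.02 and -0.17.

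All 6 tested genes of cAMP-responsive transcription had a negative log2 fold change in overexpressors (median -0.24), where the median over all genes was -0.08 and 71.6% of all genes were negative, and 4 of 6 had one in knockouts, against 35.9% of all. Per1, a clock gene with a cAMP response element, was at -0.48 and 0.21, and Nr4a1, an orphan nuclear receptor induced by cAMP, at -0.20 and -0.07. Of 11 tested lipases and droplet proteins, 7 had a negative log2 fold change in overexpressors and 11 a positive one in knockouts (median 0.25), against 71.6% and 64.1% of all tested genes, a list that shares Cidec and Fabp4 with the adipocyte markers, which summed higher in knockouts; the part of more adipocyte RNA in these values was not tested. Cidec, a droplet protein that favours large droplets, read 1139, 1728 and 1792 in overexpressors, against 2243, 2856 and 2834 in their controls (-0.77, SE 0.18, limma adjusted p = 0.304), and was at 0.25 in knockouts. G0s2, an inhibitor of adipose triglyceride lipase, was at -0.80 and 0.26. Aqp7, a glycerol channel, was at 0.05 and 0.40, and Plin2, a droplet coat protein, at 0.09 and 0.27. Of the lipases, Lipe, hormone-sensitive lipase, was at 0.06 and 0.09 and Pnpla2, adipose triglyceride lipase, at 0.14 and 0.0035. Cidea, a droplet protein of brown fat named here after its values were seen, was at -0.27 and 0.87, with knockout control 1 at 171 and overlap between the groups of both lines.

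**Figure D4:**
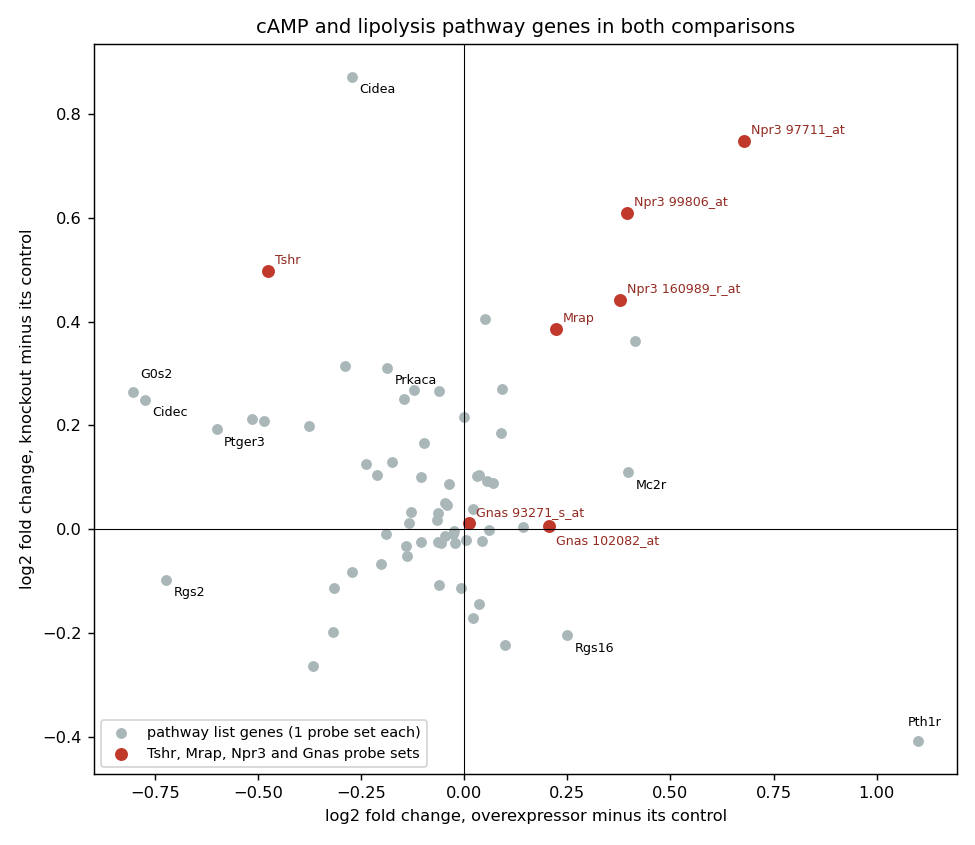
Log2 fold change of overexpressor minus its control (x axis) against knockout minus its control (y axis) for the 62 tested genes of the pathway lists (grey, 1 probe set each) and the 7 tested probe sets of Tshr, Mrap, Npr3 and Gnas (red). Pth1r lies at 1.10 and -0.41, Tshr at -0.48 and 0.50, and the brightest Npr3 probe set at 0.68 and 0.75.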

How the data were processed

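RNA of perigonadal fat was measured on 12 arrays in 4 groups of 3, assigned from the sample titles because the genotype field gives controls the value of their mutant line. The authors deposited intensities on a linear scale, 1 per probe set and array; how they were summarised, corrected for background and scaled is not given in the sources used here. No column belonged to another series, and no 2 arrays were identical. Values were transformed as log2(intensity + 36.92) and not normalized again, and the 4968 of 12422 probe sets (40%) with the lowest mean over 12 arrays were left out, leaving 7454.

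A model of 4 group means was run in limma 3.58.1 under R 4.3.3 (lmFit, eBayes with a trend, 8 residual and 4.32 prior degrees of freedom) for overexpressor minus control, knockout minus control and the difference of these effects, with Benjamini-Hochberg adjustment and a threshold of 0.05. The fit was tested on simulated data, with added changes larger than those of Tshr, Mrap, Npr3 and Gnas and with independent noise on each array. Changes as small as theirs, and shifts shared by a whole array, were not simulated. The number of arrays limits the precision.

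Probe sets were named by the annotation of the platform (1 symbol for 10833 probe sets, several for 396, none for 1193), of which 10817 matched the GRCm38.p6 reference by gene ID. The brightest tested probe set stood for a gene, which left 5706 genes. Members, lists and rules were chosen with earlier results of these data known. Members were described on all their probe sets. Of the pathway lists, genes called in a comparison, otherwise up to 2 per role with the smallest p, and a fixed few were named, and for the 3 genes with the largest RMS deviation the 2 nearest genes. Marker lists covered 11 cell types. Those for endothelium, smooth muscle, B and T cells, skeletal muscle and steroidogenic tissue overlapped in summed level between the groups of both lines, as did the macrophage, matrix, mesothelial, brown or beige and thyroid lists; the adipocyte list alone separated the knockouts. Alternatives were other constants, filters and normalizations, a fit within the line, array weights, a block for replicate number and leaving out each array.

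Replicate numbers are shared between groups in the titles. Deviations from group means of same-numbered arrays correlated from -0.36 to 0.02, so the numbers were not taken to pair the mice.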

Additional observations from a re-analysis of the deposited data

Results flagged for a closer look

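Pth1r was higher in all 3 overexpressors and lower in all 3 knockouts than in their own controls, and the difference between the effects was 1.51 on the log2 scale (limma adjusted p = 0.08175, not past 0.05). That difference was called with array medians subtracted (1.60, limma adjusted p = 0.0201), with quantile normalization (1.59, 0.0160), with array weights (1.85, 0.000995) and without overexpressor 1 (1.74, 0.0250), and its adjusted p reached 0.276 over the alternatives tried. Ptger3 was lower in all 3 overexpressors and higher in all 3 knockouts (difference -0.79, adjusted p = 0.833 by limma). Without overexpressor 1, which read 324 against 616 and 567 in the other overexpressors, the Ptger3 difference was -0.53, and with array weights it was -0.50. Rgs16 was higher in all 3 overexpressors and lower in all 3 knockouts (difference 0.45, adjusted p = 0.485 by limma). In the fit to all 12 arrays without weights, none of these differences passed over all probe sets. Complete separation of 3 arrays from 3 was seen for 8.8% of tested probe sets in overexpressors and 7.59% in knockouts, in either direction. These shares are for each line alone. The share separated in both lines in opposite directions is not given here.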

How the results depend on the processing

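Signs of Tshr, Mrap and the 3 Npr3 probe sets in each comparison held under all alternatives tried, and changes of sign were seen for Gnas and for differences between effects. Of 431 values of the 7 probe sets under alternatives, 387 kept sign and side of the threshold, 39 changed sign and 5 became called; the calls were Tshr, Mrap and Gnas 102082_at in overexpressors and the Tshr difference (-1.04) with array weights, and the Tshr difference without overexpressor control 1. The count of called probe sets in overexpressors was 6 (2 higher, 4 lower), against 11 with array medians subtracted (6 higher, 5 lower), 12 with quantile normalization (6 higher, 6 lower), 1 on the line's own 6 arrays, 411 with array weights and 3 to 21 with 1 array left out. In knockouts it was 9, against 15 with array weights, 6 to 11 with 1 array left out and, by limma with the replicate block, 0 (241 at an unadjusted p under 0.05). For the difference it was 12, against 1 without a filter, 1 with the replicate block, 44 with array weights and 1 to 13 with 1 array left out. With the replicate block 0 of the 7 probe sets were called in either comparison, as in the fit without it. In knockouts, Gnas 93271_s_at was at -0.026 with medians subtracted and -0.0035 with array weights, and 102082_at at -0.030 with medians subtracted and -0.059 with quantile normalization. Differences turned for Npr3 97711_at (0.026 with medians subtracted, 0.11 with quantile normalization), for Npr3 160989_r_at (0.030, 0.058, and 0.039 with array weights) and for Mrap (0.11 with array weights). With 1 array left out, Gnas 93271_s_at ran from -0.039 to 0.086 in overexpressors and -0.014 to 0.048 in knockouts, and 102082_at from -0.061 to 0.092 in knockouts. Differences then ran from -0.33 to 0.11 for Mrap, -0.51 to 0.24, -0.29 to 0.091 and -0.58 to 0.026 for the 3 Npr3 probe sets and -0.050 to 0.075 for Gnas 93271_s_at. The cause of these shifts was not tested. Tshr kept its sign with 1 array left out, at -0.65 to -0.38 in overexpressors and 0.46 to 0.55 in knockouts. Its difference between the effects then ran from -1.15 to -0.88. Pathway genes called in overexpressors numbered 8 with array weights, against 0, among them Pth1r, Mc2r (0.41), Npy1r (-0.67), Prkg2 (0.67), Per1 (-0.60), Cidec (-0.70) and G0s2 (-0.53); the Cidec difference was also called then (-1.05). The 99806_at probe set was not in the fit with the lowest 60% left out.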
